A study of Mus musculus with 4 samples.

Results

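Tryptophan is among the scarcest of the amino acids that mammalian cells must import, and cells spend it along competing routes. Indoleamine 2,3-dioxygenase (Ido1 and its neighbour Ido2) and tryptophan 2,3-dioxygenase (Tdo2) open the ring of tryptophan, Afmid turns the product into kynurenine, and Kmo, Kynu and Haao carry kynurenine on towards NAD. The tRNA synthetase Wars loads tryptophan onto its tRNA for protein synthesis, the transporter Slc7a5 brings tryptophan into the cell, and kynurenine is a ligand of the transcription factor Ahr. In tumours IDO1 is known as an interferon-inducible enzyme whose use of tryptophan and release of kynurenine restrain T cells.

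These 10 genes were described in MC38 cells, an established mouse colon cancer cell line. They were picked by name, by matching their NCBI gene identifiers to the mouse symbols (Wars is also called Wars1), and all 10 were found among the 27179 genes of the count table. The study asked how IFN-γ and low oxygen act together on tumour cells, and sequenced poly(A) RNA of wild-type cells in 4 conditions with 1 library each: untreated normoxia, untreated hypoxia, IFN-γ with normoxia and IFN-γ with hypoxia. Normoxia was 20% oxygen and hypoxia 1.5%, and IFN-γ was used at 5 ng/mL for 24 hours in most of the study's experiments. The labels do not give the dose or time of these libraries, and no clone or passage is named.

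Because no condition was repeated, tests compared the 2 libraries with IFN-γ with the 2 without, and the 2 hypoxic with the 2 normoxic libraries, by edgeR's quasi-likelihood test with both factors in the model. Its spread comes from 1 residual degree of freedom per gene, pooled across genes, and holds culture differences together with any interaction of the factors. A gene was called changed at a Benjamini-Hochberg adjusted p under 0.05 over the 13580 genes tested. Ratios of 2 single libraries carry 95% intervals for counting error only and have no replicate check. Each library held 34302971 to 34537939 counts assigned to genes, so 3 counts, the limit that a count of 0 allows, correspond to 0.0869 to 0.0875 CPM (counts scaled to library size).

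Both treatments could be read from genes known to respond to them. Gbp2, an interferon-induced GTPase, had 597 and 846 counts without IFN-γ and 23153 and 29245 with it. Car9, a carbonic anhydrase induced by low oxygen, had 422 and 324 counts under normoxia and 1733 and 1536 under hypoxia. Markers of colon epithelium had few counts and gave the label of colon cancer cells little backing. Cdh1 and Cdx2 had 0 counts in every library, Epcam 2, 0, 0 and 0, and Krt18 at most 2. Krt19 had 18 in the control hypoxia library and at most 2 elsewhere. Krt8 had 48 to 90 counts, Lgals4 13 to 27, Krt20 12 to 22 and Vil1 7 to 17. The 9 markers together summed to 112 to 132 counts a library, and Krt8 held the largest part. Of 12 markers of leukocytes, macrophages, hepatocytes and endothelium, Adgre1, Itgam and Alb were at 0 in every library, and the list summed to 477 and 467 counts without IFN-γ and 503 and 487 with it, under normoxia and hypoxia. Most of that sum was Cd68 (170 to 236 counts) and Cd74 (171 to 256 counts), and the part of other cells in the results below was not tested. In bulk RNA, fewer expressing cells and less RNA per cell cannot be told apart.

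IFN-γ raised 3 of the 10 genes (Ido1, Ido2 and Wars), where 4.76% of all tested genes were raised. Of the 10, 6 passed the filter on low counts, and Ido1 passed it only through its counts in the IFN-γ libraries. IFN-γ lowered 0 of them, also at an unadjusted p under 0.05 and by DESeq2, where 1.1% of all tested genes were lowered by edgeR. Hypoxia raised 1 (Ido2) and lowered 1 (Slc7a5), against 8.21% and 6.83% of all tested genes. Afmid and Ahr passed neither test, and Tdo2, Kmo, Kynu and Haao had too few counts to be tested.

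**Figure D1:**
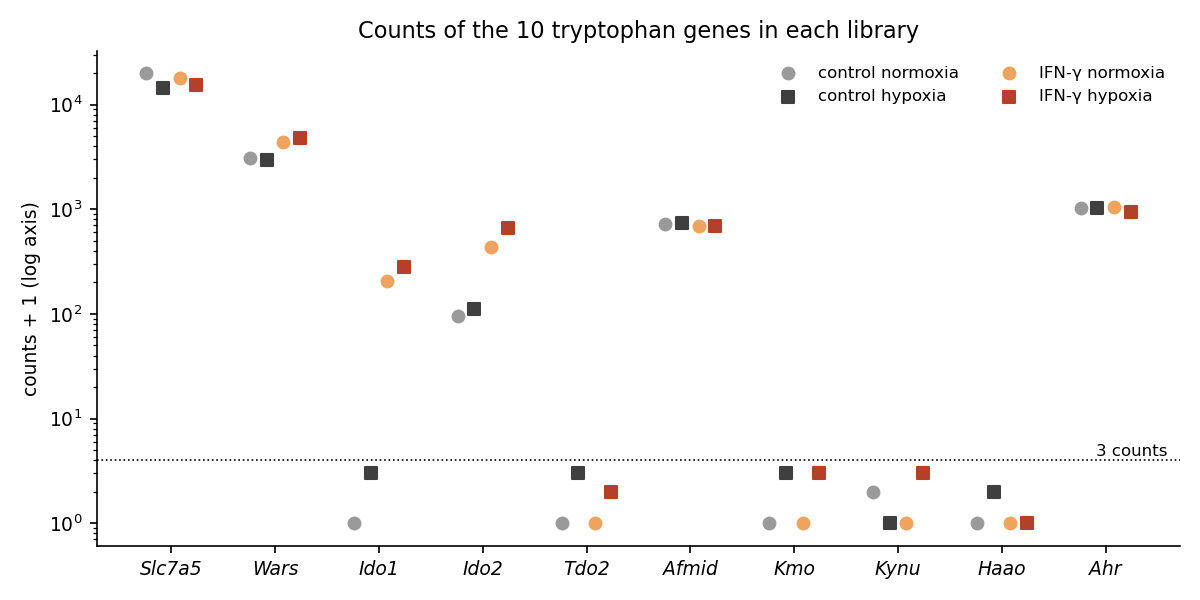
Counts of each of the 10 genes in each of the 4 libraries, with 1 added and on a log axis; circles are normoxic, squares hypoxic, grey and black control, orange and red IFN-γ, and the dotted line marks 3 counts. Ido1 moved from 0 and 2 counts to 207 and 280, while Tdo2, Kmo, Kynu and Haao stayed at or below 2 counts in every library.

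Ido1 and Ido2 lie beside each other on the minus strand of chromosome 8. In the mm10 build (GRCm38) Ido1 spans chr8:24584133-24596952 and Ido2 chr8:24531892-24576414, with 7718 bases between them. The genes have 11 merged exons each, and their coding sequences of 1221 and 1215 bases were identical at 709 of 1193 aligned positions (59.4%). The 60 coding bases in which the pair was closest are shown because reads could be credited to the wrong gene only where the sequences match. The window runs from coding base 666 to 725 in both (chr8:24585340-24586875 for Ido1 and chr8:24535285-24546508 for Ido2, each with an intron inside), is taken from the GENCODE transcripts of that build on the coding strand, and has the 44 identical bases in capitals.
Ido1: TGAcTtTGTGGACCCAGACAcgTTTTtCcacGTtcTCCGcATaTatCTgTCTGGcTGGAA
Ido2: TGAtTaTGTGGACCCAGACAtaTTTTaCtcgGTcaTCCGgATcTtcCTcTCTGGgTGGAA
The longest identical run between the coding sequences was 15 bases, shorter than the 100-base reads. Of the 31-base words in the exons, Ido1 shared 0% and Ido2 0.387% with any other annotated gene.

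Ido1 was close to silent without IFN-γ and present in both libraries with it. Its counts were 0 in the control normoxia, 2 in the control hypoxia, 207 in the IFN-γ normoxia and 280 in the IFN-γ hypoxia library. The IFN-γ libraries lay far above the control libraries, which were at or under the 3 counts that cannot be told from 0. Taken against 3 counts, Ido1 was at least 69.7-fold higher with IFN-γ under normoxia and at least 94.2-fold higher under hypoxia. Since Ido1 passed the filter on low counts only through the IFN-γ libraries, where it was high, its test adds no support beyond these counts.

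Ido1 had few companions in this pattern. Of all genes, 3 had at most 3 counts in each control library and at least 50 in each IFN-γ library. The others were Batf2, a basic leucine zipper transcription factor, with 1, 0, 193 and 258 counts in the same order of libraries, and BC023105, with 0, 2, 144 and 167. Within the IFN-γ libraries, the log2 ratio of hypoxia to normoxia was 0.44 for Ido1, 0.42 for Batf2 and 0.22 for BC023105.

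The difference of Ido1 between oxygen levels was smaller than that with IFN-γ. With IFN-γ, its count was 1.35-fold higher under hypoxia than under normoxia, with a counting interval of 1.13 to 1.63. Across all libraries the fitted log2 change with hypoxia was 0.47 ± 0.24 (SE) and did not pass the test (edgeR quasi-likelihood, Benjamini-Hochberg adjusted p = 0.201). Without IFN-γ no ratio can be given, since both libraries were at or under 3 counts.

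Ido2, which encodes an enzyme of much lower activity towards tryptophan than Ido1, was expressed before treatment and rose with IFN-γ. Its counts were 95 in the control normoxia, 110 in the control hypoxia, 431 in the IFN-γ normoxia and 654 in the IFN-γ hypoxia library. Both IFN-γ libraries lay above both control libraries. The ratio was 4.56-fold under normoxia (counting interval 3.66 to 5.78) and 5.98-fold under hypoxia (4.90 to 7.41), and the fitted log2 change was 2.40 ± 0.14 (SE; edgeR quasi-likelihood, Benjamini-Hochberg adjusted p = 2.27e-61, and 1.55e-20 to 0.00317 over 5 other fits).

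Ido2 was also the member raised by hypoxia, with a fitted log2 change of 0.48 ± 0.14 (SE; edgeR quasi-likelihood, Benjamini-Hochberg adjusted p = 0.00527). The ratio was 1.52-fold with IFN-γ (1.34 to 1.72) and 1.16-fold without it (0.873 to 1.54), so the interval in the untreated cells included no change. The call was lost by DESeq2's Wald test and in a comparison of 2 libraries with 2 that left IFN-γ out of the model, where the adjusted p was 0.386 and 0.83. Over all 5 other fits it ran from 0.0174 to 0.83. The IFN-γ response of Ido2 was larger under hypoxia by 0.39 on the log2 scale, with a counting interval of -0.04 to 0.82. Over the 10443 genes whose count reached 100 in all libraries, the central 95% of such differences ran from -0.36 to 0.40. Ido2, with 95 counts in the control normoxia library, was not among these genes. Genes near 100 counts widen this range by their counting error. Without replicates the difference of Ido2 was not tested.

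Measured per exon length, the level of Ido1 came up to nearly that of Ido2. In TPM (counts divided by exon length and scaled to the same total in each library), Ido1 stood at 10.8 and Ido2 at 11.3 in the IFN-γ normoxia library, a ratio of 0.957. In the IFN-γ hypoxia library these levels were 14.9 and 17.4, a ratio of 0.853. In the control libraries Ido2 stood at 2.51 and 2.89, and held nearly all of the level of the pair before treatment. Among the 21572 genes with an annotated length, Ido1 with IFN-γ lay above 63.2% and 66.5% of genes, a middling level. Tdo2, the third gene for the same reaction and mainly a liver enzyme, had 0, 2, 0 and 1 counts and was at the limit of detection throughout.

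**Figure D2:**
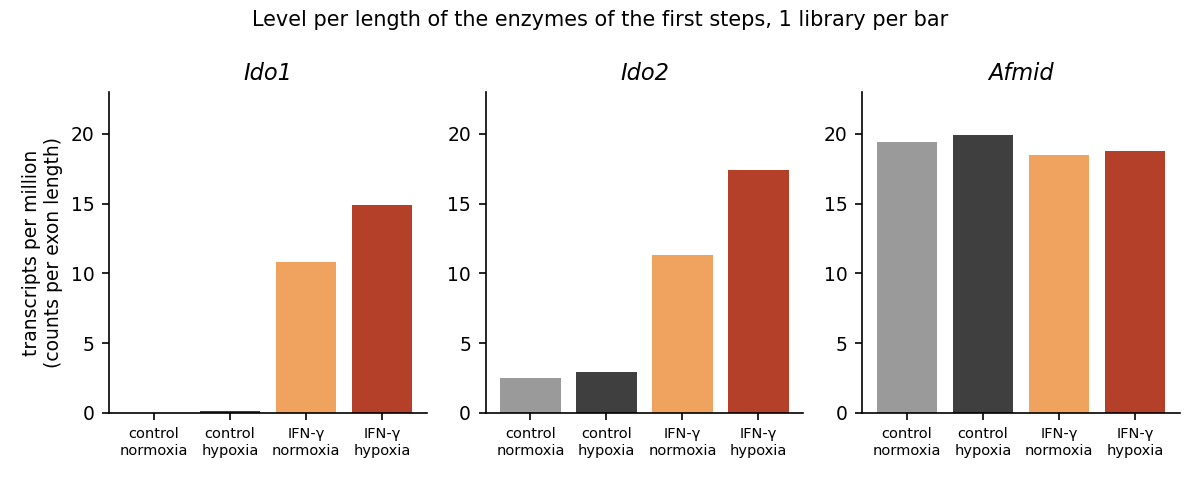
Level per exon length, in TPM, of Ido1, Ido2 and Afmid, with 1 bar per library and no error bars because no condition was repeated. Ido1 and Ido2 reached 10.8 and 11.3 with IFN-γ under normoxia and 14.9 and 17.4 under hypoxia, and Afmid stayed between 18.5 and 19.9.

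Afmid, the formamidase of the next step, passed no test. It had 717, 739, 686 and 688 counts in the control normoxia, control hypoxia, IFN-γ normoxia and IFN-γ hypoxia libraries, and the groups lay close together. The fitted log2 change was -0.07 ± 0.09 (SE) with IFN-γ and 0.03 ± 0.09 with hypoxia. The ratio with IFN-γ was 0.966 under normoxia, with a counting interval of 0.869 to 1.07, and 0.939 under hypoxia, with 0.846 to 1.04. Per length, Afmid stood 7.75 times above the sum of Ido1 and Ido2 in the control normoxia library and at 0.583 of that sum in the IFN-γ hypoxia library. Afmid is an uncertain gene in this table: 46.6% of its exon bases are shared with the annotated genes Gm20708 on the same and Tk1 on the other strand, and how the counting treated shared bases and strand is not given in the sources used here.

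The members that take kynurenine on towards NAD (Kmo, Kynu and Haao) were at the limit of detection. Kmo, the kynurenine monooxygenase, had 0, 2, 0 and 2 counts in the 4 libraries in the same order. Kynu, the kynureninase, had 1, 0, 0 and 2, and Haao, which makes the precursor of quinolinate, had 0, 1, 0 and 0. Together with Tdo2 these genes gave 11 counts in all 4 libraries. Their levels were at or below the limit of 0.0869 to 0.0875 CPM, and no difference between conditions was detectable at this depth.

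The rest of tryptophan breakdown was read from 19 further genes. Of these, 12 were tested, and IFN-γ raised 0 and lowered 0 of them by edgeR's quasi-likelihood test, with 0 at an unadjusted p under 0.05 and 0 by DESeq2. Of all genes tested, 4.76% were raised and 1.1% lowered, so a count of 0 among 12 is near the background. Their median log2 change was -0.06, beside -0.01 over all genes tested. Of the aminotransferases that can turn kynurenine to kynurenic acid, Aadat and Kyat1 had at most 6 and at most 81 counts, and Kyat3 had 625 to 877. Il4i1, an oxidase that also starts tryptophan breakdown, had at most 1 count in any library. Qprt and Acmsd, which act after the step of Haao, had at most 4 and 0. Of the enzymes of the last steps to NAD, Nadsyn1 had 301 to 397 counts and Nmnat1 158 to 196. Nmnat2 and Nmnat3 had at most 40 and at most 21. Got2, an aminotransferase that can also act on kynurenine, and Aldh2 have wider roles in the mitochondrion. They had 17862 to 19871 and 8937 to 9532 counts.

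Hypoxia raised 1 and lowered 1 of these 12 genes by edgeR, and 0 in either direction by DESeq2, beside 8.21% raised and 6.83% lowered of all genes tested by edgeR. Tph1 is a hydroxylase that directs tryptophan to serotonin. It had 10 counts in the control normoxia, 50 in the control hypoxia, 4 in the IFN-γ normoxia and 32 in the IFN-γ hypoxia library. Both hypoxic libraries were above both normoxic libraries, at low counts. The ratio was 4.82-fold without IFN-γ (counting interval 2.51 to 11.1) and 7.23-fold with it (2.84 to 31.2). With at most 10 counts under normoxia, Tph1 depended on the hypoxic libraries to pass the filter on low counts, so its call adds no support beyond these counts. Tph2, a second tryptophan hydroxylase, had 108, 134, 125 and 108 counts in the same order, more than Tph1 in each library. Its fitted log2 change with hypoxia was 0.05 ± 0.20 (SE) and did not pass the test. Ddc, the decarboxylase that follows these hydroxylases, had 0, 0, 0 and 1 counts. Kyat3, a kynurenine aminotransferase, had 823 and 877 counts under normoxia and 625 and 731 under hypoxia, a fitted log2 change of -0.33 ± 0.09 (SE; edgeR adjusted p = 0.0035), called in 3 of 5 other fits.

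**Figure D3:**
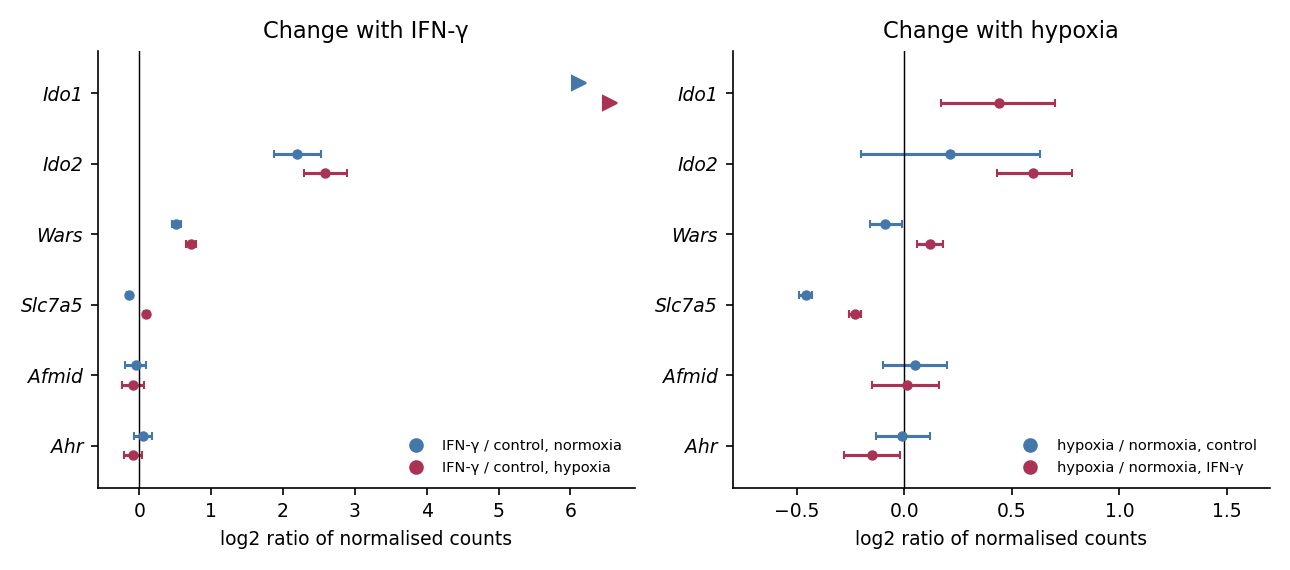
Log2 ratio of normalised counts between 2 libraries for the 6 tested genes, with IFN-γ over control on the left and hypoxia over normoxia on the right; bars are 95% counting intervals and triangles are lower bounds against 3 counts. Ido1, Ido2 and Wars lay to the right of 0 with IFN-γ in both pairs, and Slc7a5 lay to the left of 0 with hypoxia in both; the ratio of Ido1 without IFN-γ is not drawn because both counts were at or under 3.

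Wars, the enzyme that competes for tryptophan on the side of protein synthesis, rose with IFN-γ. Its counts were 3120 in the control normoxia, 2934 in the control hypoxia, 4407 in the IFN-γ normoxia and 4789 in the IFN-γ hypoxia library. Both IFN-γ libraries lay above both control libraries. The ratio was 1.43-fold under normoxia (counting interval 1.36 to 1.49) and 1.65-fold under hypoxia (1.57 to 1.73), and the fitted log2 change was 0.62 ± 0.06 (SE; edgeR quasi-likelihood, Benjamini-Hochberg adjusted p = 2.12e-21, and 6.28e-10 to 0.0148 over 5 other fits). The response was larger under hypoxia by 0.21 on the log2 scale (0.11 to 0.30 by counting error), and this difference was not tested. It lay inside the central range given for Ido2. That range includes genes with far fewer counts than Wars, so it cannot show whether this difference is common. Per length Wars stood at 86.9 and 81.3 TPM in the control and 122 and 135 in the IFN-γ libraries, above 89.4% to 93.5% of genes.

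Wars had the highest change with IFN-γ of the 20 cytoplasmic tRNA synthetases compared. The log2 changes of the other 19, each of which loads another amino acid (Eprs loads a pair of them and Farsa and Farsb form 1 enzyme), ran from -0.09 for Hars to 0.36 for Kars with a median of 0.01. IFN-γ raised 2 of these 19 by edgeR and 1 by DESeq2, beside 4.76% of all genes tested by edgeR. Kars, the lysine enzyme, had 22178, 20925, 28832 and 26063 counts and rose 1.31-fold under normoxia and 1.26-fold under hypoxia (fitted log2 change 0.36 ± 0.05 SE, edgeR adjusted p = 4.48e-12). Rars, the arginine enzyme, had 12046, 11941, 13767 and 12912 counts and a fitted log2 change of 0.17 ± 0.05 (SE; edgeR adjusted p = 0.0253). Over the 5 other fits Kars was called in 4 and Rars in 3. Wars2, the mitochondrial tryptophan enzyme from another gene, had 427, 405, 410 and 413 counts and a fitted log2 change of -0.0018 ± 0.11 (SE), which did not pass the test.

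**Figure D4:**
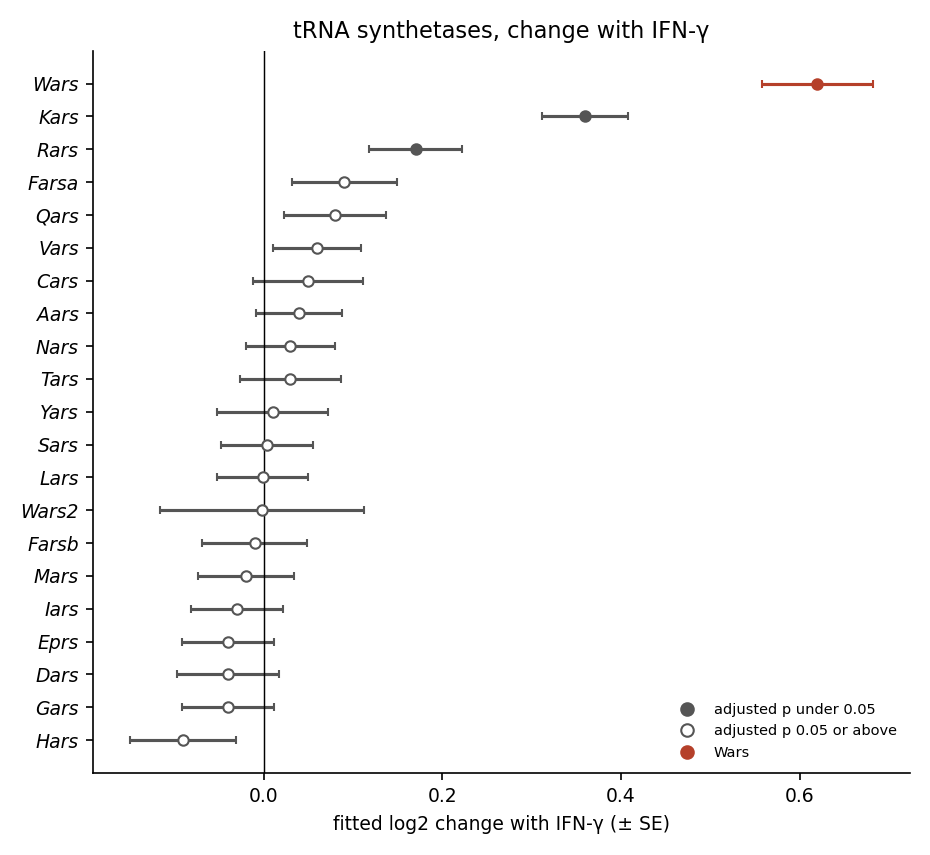
Fitted log2 change with IFN-γ, with its SE, of 20 cytoplasmic tRNA synthetase genes and the mitochondrial Wars2, ordered by size; filled points passed an adjusted p of 0.05 in edgeR's quasi-likelihood test over all genes. Wars stood at 0.62, followed by Kars at 0.36 and Rars at 0.17, and Wars2 lay near 0.

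Oxygen did not give a called change in Wars, with a fitted log2 change of 0.02 ± 0.06 (SE; edgeR quasi-likelihood adjusted p = 0.878). Among the other 19 synthetases hypoxia raised 2 (Dars and Sars) and lowered 3 (Farsa, Farsb and Mars) by edgeR, and 0 in either direction by DESeq2. Of all genes tested, 8.21% were raised and 6.83% lowered by edgeR, and the raised share of the synthetases lay near that background. Their median log2 change with hypoxia was -0.07, beside 0.0047 over all genes tested.

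Slc7a5, the light chain of the large neutral amino acid transporter LAT1, was the most abundant of the 10 genes and fell with hypoxia. It had 19938 counts in the control normoxia, 14467 in the control hypoxia, 17937 in the IFN-γ normoxia and 15298 in the IFN-γ hypoxia library. Both hypoxic libraries lay below both normoxic libraries. The count was 27.3% lower under hypoxia without IFN-γ and 14.6% lower with it, and the fitted log2 change was -0.34 ± 0.05 (SE; edgeR quasi-likelihood, Benjamini-Hochberg adjusted p = 5.17e-10). Over 5 other fits the adjusted p ran from 4.09e-05 to 0.0886, and the call was lost where IFN-γ was left out of the model. Per length Slc7a5 stood at 516, 373, 461 and 400 TPM, above 98.1% to 98.7% of genes.

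With IFN-γ the direction of Slc7a5 differed between the oxygen levels. It was 9.15% lower with IFN-γ under normoxia and 1.07-fold higher under hypoxia (counting interval 1.04 to 1.09), and the fitted log2 change was -0.02 ± 0.05 (SE; edgeR quasi-likelihood adjusted p = 0.938). The difference of 0.23 between the log2 changes had a counting interval of 0.19 to 0.28 and was not tested. It lay inside the central range given for Ido2, but genes with far fewer counts widen that range, so this decides nothing for Slc7a5.

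Slc3a2, the heavy chain that LAT1 needs to reach the cell surface, moved the same way with hypoxia. It had 12225 and 12220 counts under normoxia and 10618 and 10429 under hypoxia, a fitted log2 change of -0.21 ± 0.05 (SE; edgeR quasi-likelihood adjusted p = 0.000804). Per length, the light chain stood above the heavy chain by a ratio of 1.55 in the control normoxia, 1.30 in the control hypoxia and 1.40 in each IFN-γ library.

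Hypoxia lowered 4 and raised 0 of the 12 tested genes in a list of 14 other amino acid transporters, with 6 lower and 0 higher at an unadjusted p under 0.05 and 2 lower by DESeq2. Of all genes tested, 6.83% were lowered and 8.21% raised by edgeR. The median log2 change of the 12 was -0.21, beside 0.0047 over all genes tested. Besides Slc3a2 the lowered genes were Slc1a5, a glutamine carrier that works with LAT1, Slc7a6, and Slc7a1, a carrier of arginine and lysine, each at -0.21 or -0.22. Over the 5 other fits Slc3a2 and Slc7a1 were called in 4 and Slc1a5 and Slc7a6 in 3. With Slc7a5 included, its change of -0.34 ranked 10 of 13 from the highest, and the genes below it, Slc7a7, Slc6a19 and Slc43a1, had at most 97 counts and did not pass the test. Slc7a11, the cystine carrier that shares the heavy chain with Slc7a5, had a log2 change of 0.12 ± 0.08 (SE) and did not pass either.

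**Figure D5:**
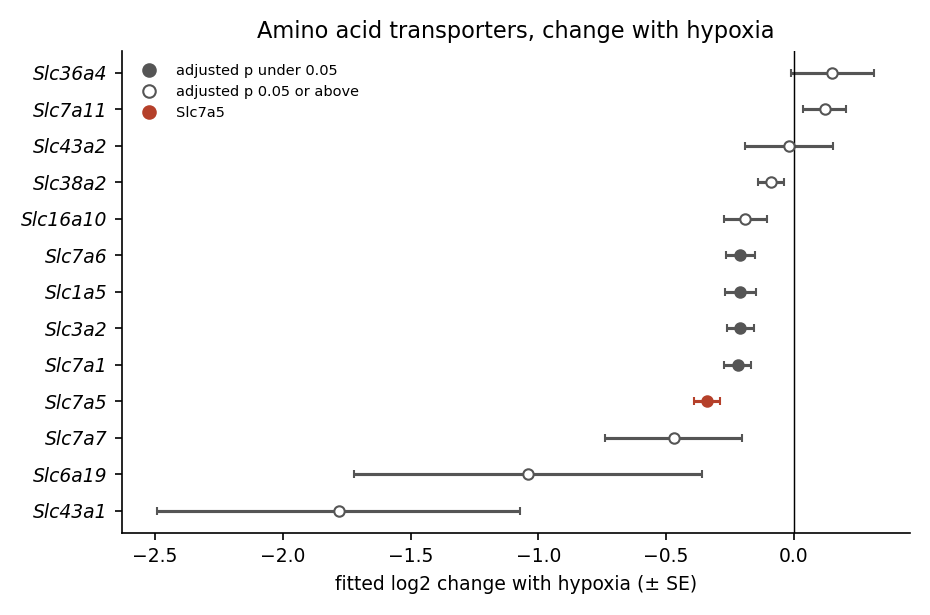
Fitted log2 change with hypoxia, with its SE, of Slc7a5 and 12 other amino acid transporter genes; filled points passed an adjusted p of 0.05 in edgeR's quasi-likelihood test over all genes. Slc7a5 at -0.34 and Slc7a1, Slc3a2, Slc1a5 and Slc7a6 at -0.21 to -0.22 passed, and the wide bars belong to genes with few counts.

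IFN-γ raised 1 of these 12 transporters by edgeR and 0 by DESeq2, beside 4.76% of all genes tested by edgeR. This was Slc6a19, a neutral amino acid carrier of gut and kidney, which had 2 and 0 counts without IFN-γ and 30 and 16 with it, under normoxia and hypoxia. Against 3 counts it was at least 10.1-fold higher under normoxia and at least 5.38-fold higher under hypoxia. It too passed the filter on low counts only through the IFN-γ libraries, so its call adds no support beyond these counts.

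Ahr passed no test. It had 1029 counts in the control normoxia, 1021 in the control hypoxia, 1055 in the IFN-γ normoxia and 950 in the IFN-γ hypoxia library, and the 4 libraries lay close together. The fitted log2 change was -0.02 ± 0.08 (SE) with IFN-γ and -0.08 ± 0.08 with hypoxia. The ratio with IFN-γ was 1.04 under normoxia (counting interval 0.949 to 1.13) and 0.939 under hypoxia (0.859 to 1.03). With hypoxia the ratio was 0.994 without IFN-γ (0.911 to 1.08) and 0.901 with it (0.825 to 0.985). Only the last of these intervals left out 1. Per length its level was 14.9 to 16.3 TPM, about that of Ido1 with IFN-γ and hypoxia.

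Partners and targets of Ahr were read from a list of 14 genes. Of these, 11 were tested, and IFN-γ raised 0 and lowered 0 by edgeR, with 0 higher and 2 lower at an unadjusted p under 0.05 and 0 by DESeq2, beside 4.76% raised and 1.1% lowered of all genes tested. The 2 lower genes were Nqo1 and Aldh3a1, with log2 changes of -0.17 ± 0.07 and -0.77 ± 0.37 (SE). Their edgeR adjusted p was 0.123 and 0.305. Aldh3a1 had 45 and 48 counts without IFN-γ and 30 and 24 with it. Cyp1a1, the classic Ahr target, had 34, 38, 40 and 22 counts in the same order of libraries, and Cyp1b1, also a target, had 61, 67, 62 and 74. The repressor Ahrr had at most 2 counts. Hypoxia raised 1 of the 11 by edgeR and 1 by DESeq2, beside 8.21% of all genes tested. This was Tiparp, a target that restrains Ahr, which had 2190 and 2376 counts under normoxia and 2917 and 2908 under hypoxia, a fitted log2 change of 0.35 ± 0.07 (SE; edgeR adjusted p = 4.1e-06), called in 4 of 5 other fits.

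Genes of the response to amino acid shortage were read beside the enzymes that consume tryptophan. IFN-γ raised 1 of 12 (Cebpb) and lowered 0 by edgeR, with 2 higher and 0 lower at an unadjusted p under 0.05 and 1 higher by DESeq2, and the median log2 change was 0.01. Of all genes tested, 4.76% were raised and 1.1% lowered by edgeR. Cebpb, a transcription factor that also answers to cytokines, had 2166, 1743, 3036 and 2655 counts and a fitted log2 change of 0.56 ± 0.07 (SE; edgeR adjusted p = 1.5e-14), called in 4 of 5 other fits. Atf4, the transcription factor at the centre of this response, and its target Asns had log2 changes with IFN-γ of 0.07 ± 0.05 and -0.02 ± 0.05 (SE) and did not pass. RNA counts do not show how much Atf4 protein is made.

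Hypoxia raised 4 of these 12 genes (Trib3, Ddit3, Vldlr and Nupr1) and lowered 2 (Phgdh and Cebpb) by edgeR, and raised 3 and lowered 1 by DESeq2, beside 8.21% raised and 6.83% lowered of all genes tested by edgeR. Vldlr, a lipoprotein receptor that is also known to respond to low oxygen directly, had 2195 and 2072 counts under normoxia and 3768 and 3606 under hypoxia, a fitted log2 change of 0.79 ± 0.07 (SE; edgeR adjusted p = 4.08e-31), called in all 5 other fits. Trib3 had a change of 0.36 and Ddit3 of 0.33, while Asns and Psat1, which make asparagine and serine, had -0.07 each and did not pass. The members of the list therefore moved in both directions, with a median of 0.10.

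Among 17 genes known to act on Ido1 or its protein, of which 16 were tested, IFN-γ raised 7 and lowered 1 by edgeR, and raised 6 and lowered 0 by DESeq2, beside 4.76% raised and 1.1% lowered of all genes tested by edgeR. Irf1, a transcription factor that binds the Ido1 promoter, had 3770 and 4422 counts without IFN-γ and 20118 and 23759 with it. This was 5.39-fold under normoxia and 5.42-fold under hypoxia. Socs1, Socs3, Irf9, Stat3, Jak2 and Hmox1 were raised with log2 changes of 1.5, 0.94, 0.82, 0.79, 0.56 and 0.25, and Ifngr1, a chain of the IFN-γ receptor, was lowered with -0.25. Socs1 and Socs3, which feed back on the receptor kinases, rose in the same libraries as Ido1. Over the 5 other fits Hmox1 was called in 3, Jak2 in 4 and Ifngr1 in 0.

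Hypoxia raised 5 of these 16 genes by edgeR and 3 by DESeq2, and lowered 0 by either, with 1 lower at an unadjusted p under 0.05, beside 8.21% raised and 6.83% lowered of all genes tested by edgeR. The raised genes were Ifngr1, Jak1, Jak2, Irf1 and Hmox1, with log2 changes of 0.24, 0.29, 0.30, 0.24 and 0.87. Of 5 other fits, 2 called Ifngr1, 4 Jak1, 3 Jak2, 4 Irf1 and 5 Hmox1. The change of Irf1 with hypoxia was 1.18-fold both without and with IFN-γ. Hmox1, haem oxygenase, which breaks down the haem that Ido1 needs as cofactor, had 4922 and 5388 counts under normoxia and 8393 and 10550 under hypoxia. Bin1, reported elsewhere as a repressor of Ido1, had log2 changes of 0.01 with IFN-γ and -0.05 with hypoxia and passed neither test.

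Promoter windows from RefSeq on GRCm38, from 250 bases before to 50 bases after the start, were matched for 4 of the 10 genes (Kmo, Tdo2, Afmid and Haao). None of these 4 held the interferon-response motif GAAANNGAA or the gamma-activated site TTCNNNGAA on either strand, which 8.57% and 8.47% of 27025 promoters held. The hypoxia-response core ACGTG was in the Afmid and Haao windows, as in 19.7% of promoters. GCGTG, a core of the hypoxia-response element as well as of the Ahr element, was in the Tdo2 and Haao windows, as in 32.5%. ACGTG and GCGTG can overlap each other, and a match in letters does not show a bound site.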

How the data were processed

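RNA of 4 MC38 cultures was enriched for poly(A), made into strand-specific libraries and sequenced as paired 100-base reads on the DNBSEQ platform. The authors aligned reads with HISAT2, and the submitters' processing notes name featureCounts and the mm10 build. The deposited values are whole-number counts per NCBI gene. Versions, strand setting and treatment of reads with several matches are not given in the sources used here. Every column was matched to its sample by title.

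Normalisation and tests used edgeR 4.0.16 in R 4.3.3, with TMM factors of 0.993 to 1.01, edgeR's filter on low counts with a minimum of 10, and an additive quasi-likelihood model of oxygen and IFN-γ. The pooled biological coefficient of variation was 4.71%. Each SE given with a fitted log2 change is that change, without its sign, divided by the square root of the test's F statistic. It thus carries the spread pooled across genes. DESeq2 1.42.0 was an alternative, and its own SE for Ido2 with IFN-γ was 0.244, beside 0.142 here. Ratios of 2 libraries had 0.5 counts added and exact Clopper-Pearson 95% intervals, and differences of such ratios had Poisson intervals. Intervals and limits of detection cover counting error only, since reads carried no molecular identifiers. TPM values were computed from the counts over the union of GENCODE exons, for 21572 genes. Scripts were tested on simulated data.

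All 10 members are named. Of the wider lists, named genes passed an adjusted p of 0.05, with a planned limit of 6 a list with values. The list of Ido1 regulators went beyond this limit. Further genes were chosen for their role or their values after these values were seen. Members and lists were chosen with earlier results of these data known. Of the list of Ido1 regulators, 1 gene is not reported here. With 1 sample per condition, p-values of the additive model rest on departures of these 4 libraries from it, pooled across genes, and not on replicates.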

Additional observations from a re-analysis of the deposited data

Results flagged for a closer look

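For 3 genes, the ratios of the same contrast had opposite signs in the 2 pairs of libraries. None of these differences was tested, since each condition had 1 library. The log2 change of Slc7a5 with IFN-γ was -0.14 under normoxia and 0.09 under hypoxia, and both counting intervals excluded 0. The log2 change of Wars with hypoxia was -0.09 without IFN-γ and 0.12 with it, again with counting intervals that excluded 0. The log2 change of Ahr with IFN-γ was 0.05 under normoxia and -0.09 under hypoxia, and both counting intervals included 0.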

How the results depend on the processing

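The 3 genes raised by IFN-γ were Ido1, Ido2 and Wars in each fit that tested them. For Ido1 these repeated calls add no support beyond its counts, as stated above. Ido1 could not be tested under a minimum of 10 counts in every library, which left 2, and Wars fell below a log2 change of 1, which also left 2. The number of genes raised by hypoxia was 0 by DESeq2's Wald test, 0 when 2 libraries were compared with 2 by edgeR without IFN-γ in the model, and 0 when a log2 change of at least 1 was asked. The number lowered by hypoxia was 0 in that comparison of 2 with 2 and 0 with a log2 change of at least 1. In the comparison of 2 with 2, the spread holds the effect of IFN-γ, and the call of Slc7a5 was lost at an adjusted p of 0.0886 with a log2 change of -0.35. No called change of these genes reversed its sign in the fits tried. The ratios of library pairs of the 6 tested genes and the 5 differences between IFN-γ changes kept within their counting intervals with total counts in place of TMM or with 5 counts added. Levels per length moved by more than counting error in 20 of 22 values when the longest transcript replaced the exon union, and the ratio of Ido1 to Ido2 was then 0.93 and 0.829. DESeq2 gave no adjusted p for the hypoxia change of Ido1. Leaving out a library gives no test, since 3 libraries leave no residual degrees of freedom for 3 parameters. Beyond the model with oxygen as a factor, which compares IFN-γ with control within each oxygen level, no block of replicate numbers could be fitted because each condition had 1 library. Genes with at most 3 counts in every library cannot be compared at this depth.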
